A study of Mus musculus with 9 samples.

Results

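Imprinted growth genes are expressed from 1 parental allele and set the size of the fetus and of many tissues. The 10 described here were chosen by name: H19, Igf2, Meg3, Rian, Mirg, Dlk1, Cdkn1c, Peg3, Grb10 and Plagl1. Each matched 1 of the 55416 gene identifiers in the table. They were named with the group differences of the same libraries known, so their values are a description and no p-value is printed for them. Which of them the fit over all genes called is given on the same footing, and supports nothing. RNA sequencing of mouse left gastrocnemius, the large calf muscle, gave 9 libraries, 3 in each group. AET_MET mice ran on a treadmill for 60 minutes on 5 days a week over 8 weeks and drank water with metformin, an oral glucose-lowering drug, at 2 mg/mL. AET mice had the same training without the drug, and SED mice stayed sedentary. The labels give no strain, sex or age, and do not say which of the mice of a group, or how many, gave each library. No group received metformin without training, so an effect of the drug alone cannot be told apart from an effect on training.

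Imprinted genes sit in clusters in which a control region, methylated on 1 parental chromosome, sets which genes that chromosome expresses. Paternally expressed members tend to promote growth and maternally expressed ones to restrain it. H19, a maternally expressed long noncoding RNA, is abundant in fetal muscle and falls after birth, but mature muscle keeps some of it. In its cluster the factor CTCF binds the unmethylated maternal control region and keeps Igf2 from enhancers that it shares with H19. In the cluster from Dlk1 to Mirg the paternal chromosome expresses Dlk1, and the maternal one the noncoding RNAs Meg3, Rian and Mirg.

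On GRCm38, H19 lay on chromosome 7 at 142575529 to 142578143, on the minus strand, and Igf2 lay 72.6 kb away at 142650766 to 142666816. Cdkn1c, on the same chromosome at 143458339 to 143461050, belongs to the neighbouring imprinted cluster. Meg3 lay on chromosome 12 at 109541001 to 109571726, Rian at 109603940 to 109661716 and Mirg at 109729764 to 109749460, all on the plus strand. Dlk1 lay before them at 109452823 to 109463336. Peg3 (chromosome 7, 6703892 to 6730431), Grb10 (chromosome 11, 11930508 to 12038683) and Plagl1 (chromosome 10, 13060504 to 13131694) stand in clusters of their own.

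**Figure D1:**
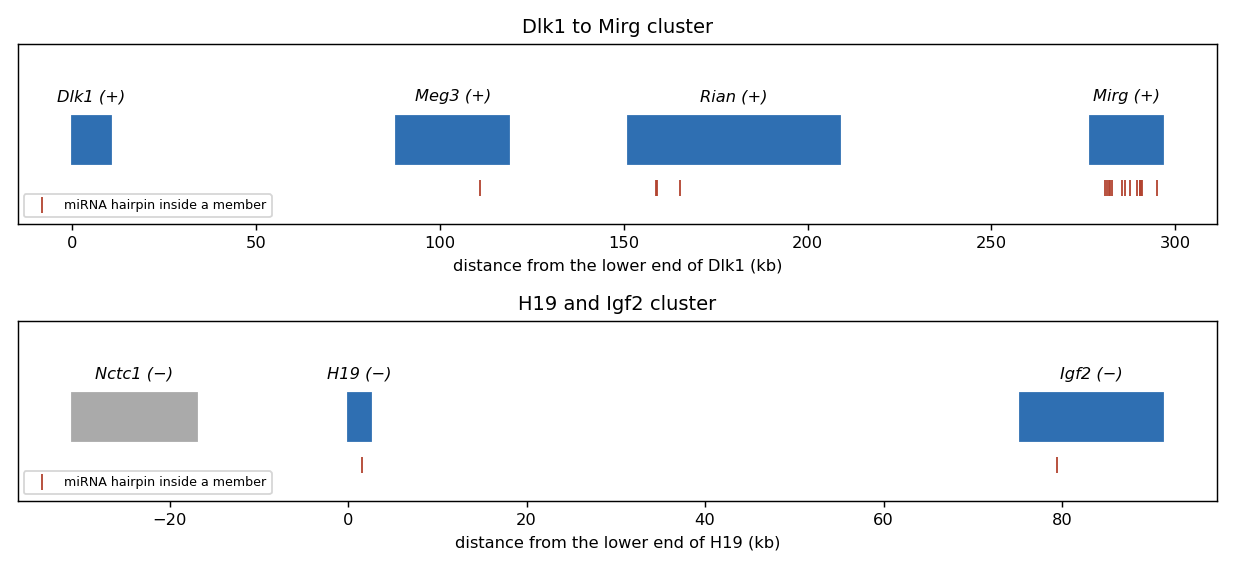
Positions of the members of 2 imprinted clusters, in kb from the lower-coordinate end of Dlk1 (top) or H19 (bottom). Blue boxes are members with their strand, the grey box is the muscle transcript Nctc1, and red ticks are annotated miRNA hairpins inside a member: 14 in Mirg, 3 in Rian and 1 each in Meg3, H19 and Igf2.

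The noncoding members and the protein-coding Igf2 are hosts of small RNAs. RefSeq hairpins on the same strand numbered 14 within Mirg, 3 within Rian and 1 each within Meg3, H19 and Igf2, and Rian also held 8 snoRNA genes. The Rian and Igf2 hairpins were in 0 of 20 and 0 of 9 annotated transcripts of their hosts, and that of Meg3 in 1 of 11. The hairpin of Mir675 was found in 3 of the 7 annotated H19 transcripts, so those transcripts carry it within the H19 RNA. It is shown because H19 had the largest log2 difference among the 8 of these genes that were fitted, with both mature miRNAs in capitals (RefSeq, GRCm38.p6, chr7:142577064-142577147, minus strand):
Mir675 hairpin: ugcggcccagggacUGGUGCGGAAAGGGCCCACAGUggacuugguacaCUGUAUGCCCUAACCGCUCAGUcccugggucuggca
The mature miRNAs follow with the seed, bases 2 to 8, in capitals, since the seed chooses the targets of a miRNA:
mmu-miR-675-5p: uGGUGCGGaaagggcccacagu
mmu-miR-675-3p: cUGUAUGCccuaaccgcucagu
Among the 38 mature miRNAs inside the members there were 37 seeds, and neither of these 2 was shared with another. A list of RNAs compiled by name for these loci, with positions not checked, had 16 miRNA genes in the table. These were at 0 counts in all 9 libraries. This kind of library does not measure mature miRNAs, so nothing is said of their levels.

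Meg3 and Rian were highest in the same 3 libraries, those of AET, and the RefSeq windows of 300 bases, from 250 before to 50 after the start, are shown for both on GRCm38.p6, plus strand (chr12:109540746-109541045 and chr12:109603695-109603994). Capitals mark the cAMP response element TGACGTCA, the TATA box TATAAA and the hexamer TGCCGC, which the imprint-keeping factor ZFP57 binds when methylated, each on either strand:
Meg3: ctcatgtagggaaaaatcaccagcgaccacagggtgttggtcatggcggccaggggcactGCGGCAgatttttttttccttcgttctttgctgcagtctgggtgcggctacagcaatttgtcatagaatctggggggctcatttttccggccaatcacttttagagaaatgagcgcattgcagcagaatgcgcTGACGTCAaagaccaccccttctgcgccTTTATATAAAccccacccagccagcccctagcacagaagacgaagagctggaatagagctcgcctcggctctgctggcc
Rian: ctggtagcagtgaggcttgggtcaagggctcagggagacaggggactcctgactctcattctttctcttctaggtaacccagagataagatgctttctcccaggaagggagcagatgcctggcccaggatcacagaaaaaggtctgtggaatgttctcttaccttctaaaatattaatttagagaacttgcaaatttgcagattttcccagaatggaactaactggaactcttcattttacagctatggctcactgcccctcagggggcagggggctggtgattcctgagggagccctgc
RefSeq gives Meg3 another start, whose window (chr12:109545148-109545447) held 1 CpG and none of the 3 motifs. The Meg3 window shown held 13 CpG dinucleotides and the Rian window 0, against a median of 7 over 32851 such windows of mouse genes. That window had 2 TATAAA matches, 1 on each strand, which overlapped. TGACGTCA stood in 1.79% of all windows, TATAAA in 13.6% and TGCCGC in 11.6%. None of the 3 was in the Rian window. Of the 13 windows of 8 members, 2 held TGACGTCA, those of Meg3 and Peg3. Of the other motifs searched on both strands, the YY1 core GCCATNTT was in none of the 13 and in 6.05% of all windows, and the E-box CANNTG was in 7 of the 13 and in 72.3% of all. A match is only a match of letters. H19 and Cdkn1c have no entry in the table of windows.

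Nothing in the labels ties the 3 numbered samples of a group to 3 mice, so a p-value here reflects how much these samples vary, and part of that may be technical. Libraries held 15434424 (AET_MET replicate 1) to 25355877 (AET replicate 3) expected counts, which are read numbers as estimated by RSEM. Levels are in CPM, counts relative to the library total after TMM scaling, which adjusts for differences in composition. Fiber genes such as Acta1 and Ckm were abundant, with a summed level over 10 such genes of 131115 to 147196 CPM in AET_MET, 130924 to 147128 CPM in AET and 135314 to 152064 CPM in SED libraries. A filter on low counts left 13944 genes and 8 of the 10 members, without Mirg and Dlk1. A gene was called where edgeR's quasi-likelihood test gave a Benjamini-Hochberg adjusted p under 0.05 over all genes.

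H19 was the most abundant of the 10 genes per kb of exon. It averaged 75.2 CPM per kb over the 9 libraries, with a range of 30.8 to 140.4 (2460 bases of annotated exon). Cdkn1c followed at 6.09 CPM per kb (5.17 to 6.79), then Grb10 at 3.30 (2.31 to 4.84), Igf2 at 1.52 (1.26 to 2.06) and Peg3 at 1.13 (0.565 to 1.53). Rian at 0.203 CPM per kb (0.163 to 0.265), Plagl1 at 0.151 (0.0804 to 0.244), Meg3 at 0.120 (0.0864 to 0.168), Dlk1 at 0.0475 (0.0109 to 0.0668) and Mirg at 0.0263 (0.00604 to 0.0431) were the lowest. The ranges of H19, Cdkn1c and Grb10 did not overlap. Those of Igf2 and Peg3 did, as did those of Rian, Plagl1 and Meg3, and those of Dlk1 and Mirg. Exon lengths are unions over all annotated transcripts, so a gene with many long alternative exons, such as Rian, is given too low a level per kb where few of them are used.

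**Figure D2:**
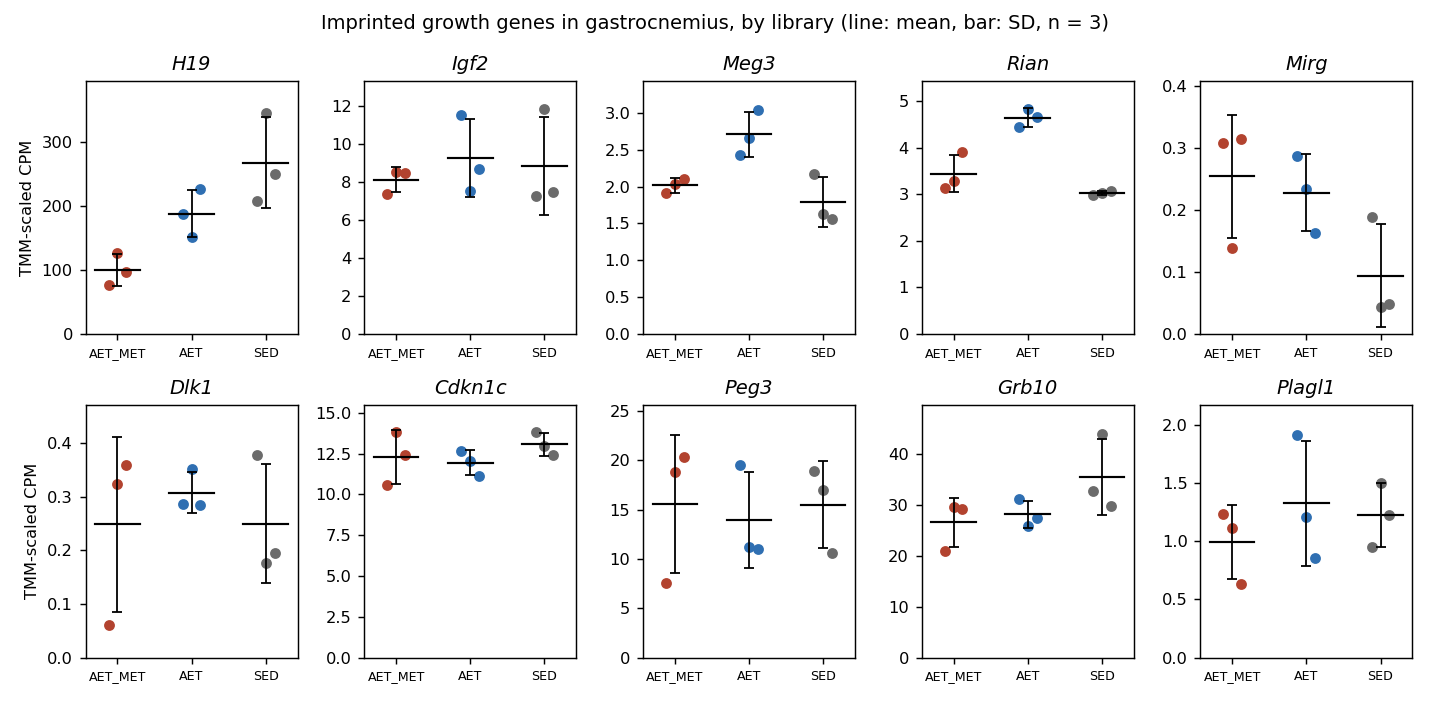
TMM-scaled CPM of each of the 10 genes in every library. Points are libraries of AET_MET, AET and SED, the line is the mean and the bar the SD (n = 3), and each panel has its own axis from 0. H19 was lowest in all 3 AET_MET libraries, and Meg3 and Rian were highest in all 3 AET libraries.

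H19 was lower in trained mice given metformin than in both other groups. It had 75.7, 126 and 96.6 CPM in AET_MET libraries, 187, 152 and 226 CPM in AET libraries, and 208, 345 and 250.02 CPM in SED libraries. Every AET_MET library was below every AET and every SED library, while AET and SED overlapped. The means were 99.5 ± 25.3 CPM in AET_MET, 188 ± 36.9 CPM in AET and 268 ± 70.6 CPM in SED (SD, n = 3 each). The log2 difference was -1.43 ± 0.26 (SE) for AET_MET against SED, -0.92 ± 0.26 for AET_MET against AET and -0.51 ± 0.26 for AET against SED. The group totals behind these values were 6102, 13361 and 17354 counts of H19 in AET_MET, AET and SED, so counting error is small beside the spread between libraries. Of all genes tested, 3.33% had their 3 AET_MET libraries below all others.

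Other transcripts of the H19 neighbourhood did not have this pattern. Igf2, the fetal growth factor that shares enhancers with H19, had 7.34, 8.52 and 8.44 CPM in AET_MET libraries, 11.5, 7.53 and 8.68 CPM in AET libraries, and 7.23, 11.8 and 7.47 CPM in SED libraries. The 3 groups overlapped, and the log2 differences were -0.13 ± 0.20 for AET_MET against SED, -0.18 ± 0.20 for AET_MET against AET and 0.06 ± 0.20 for AET against SED. Nctc1, a noncoding transcript 16.9 kb beyond H19, had 49.8, 60.3 and 58.4 CPM in AET_MET libraries, 65.9, 59.5 and 59.0 CPM in AET libraries and 54.1, 48.4 and 52.2 CPM in SED libraries. It was not called, with log2 differences of 0.12 ± 0.09 for AET_MET against SED, -0.13 ± 0.09 for AET_MET against AET and 0.25 ± 0.09 for AET against SED (edgeR adjusted p = 0.450, 0.412 and 0.0724). With upper-quartile scaling, or when 5 CPM in 3 libraries was required, it was called higher in AET than in SED. Igf2os, antisense to Igf2, held 0 to 3 counts in a library, and Ins2, the insulin gene next to Igf2, had 1 count in 1 SED library.

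The ratio of H19 to Igf2 within a library, which needs no scaling between libraries, separated all 3 groups. It was 10.3, 14.8 and 11.4 in AET_MET libraries, 16.2, 20.1 and 26.0 in AET libraries, and 28.7, 29.3 and 33.5 in SED libraries. The means were 12.2 ± 2.33 in AET_MET, 20.8 ± 4.91 in AET and 30.5 ± 2.59 in SED (SD, n = 3 each). H19 over Nctc1 was 1.76 ± 0.30 in AET_MET, 3.07 ± 0.67 in AET and 5.25 ± 1.69 in SED. The AET_MET libraries lay below all others there too. AET and SED were only just apart, at no more than 3.82 in AET and no less than 3.84 in SED libraries. Nctc1 over Igf2 averaged 6.93 ± 0.14 in AET_MET, 6.81 ± 1.08 in AET and 6.19 ± 1.82 in SED, and the 3 groups overlapped. Both ratios with H19 use the values that chose the gene, so they describe the same difference again.

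**Figure D3:**
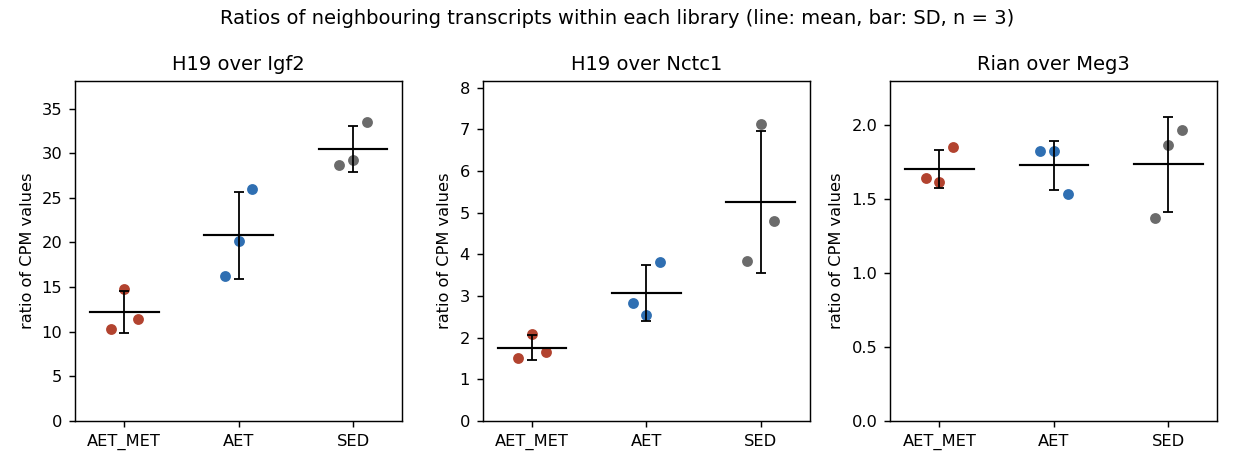
Ratios of CPM values within each library for H19 over Igf2, H19 over Nctc1 and Rian over Meg3, with axes from 0. Points are libraries, the line is the mean and the bar the SD (n = 3). H19 over Igf2 stood at 10.3 to 14.8 in AET_MET, 16.2 to 26.0 in AET and 28.7 to 33.5 in SED, while Rian over Meg3 overlapped in all 3 groups.

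The call on H19 in AET_MET against SED was not stable to leaving out 1 library. It was kept in 4 of the 9 fits that left out 1 library, and lost without AET_MET replicate 1 or 3, AET replicate 1, or SED replicate 2 or 3. AET replicate 1 is outside this comparison, and without it the log2 difference was -1.43 ± 0.29, against -1.43 ± 0.26 with all libraries. The log2 difference of H19 in AET_MET against SED was -1.65 to -1.20 over these fits. In AET against SED, where H19 was not called, it was -0.29 ± 0.24 without SED replicate 2, against -0.51 ± 0.26 with all libraries.

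Tendon markers were also lower in the AET_MET libraries than in the SED libraries. The summed level of 7 tenocyte markers was 91.1 to 220.4 CPM in AET_MET, 136 to 315 CPM in AET and 318 to 531 CPM in SED libraries. All 7 had a lower estimate in AET_MET than in SED, but none was called (edgeR; 3 at an unadjusted p under 0.05, and 1 called by DESeq2). None of the 7 was at 0 in any library. The part of these cells in the H19 difference was not tested, and in bulk muscle fewer cells of a type and less RNA per cell cannot be told apart. The 5 erythroid markers had lower estimates in AET_MET than in SED and AET, and in AET than in SED, with median log2 differences of -0.58, -0.21 and -0.32, and none was called (edgeR; 2, 0 and 0 at an unadjusted p under 0.05, and 1, 0 and 0 called by DESeq2). Their sum was 143 to 210.0 CPM in AET_MET, 193 to 221 CPM in AET and 193 to 365 CPM in SED libraries, and their part in the H19 difference was not tested. The 8 satellite cell markers summed to 63.5 to 73.8 CPM in AET_MET, 69.9 to 76.9 CPM in AET and 66.8 to 74.1 CPM in SED libraries, and the 9 markers of fibro-adipogenic progenitors to 1451 to 1640.1, 1370.5 to 1741 and 1563 to 2082 CPM in the same order of groups.

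Over the 9 libraries, the 5 genes whose log2 CPM was most like that of H19, of 11313 named genes averaging at least 1 CPM, were Paf1, Rhou, Mettl6, Slc43a2 and Sparc, with Pearson r of 0.959, 0.955, 0.951, 0.947 and 0.946. Sparc, encoding a collagen-binding matrix protein, averaged 99.99 CPM in AET_MET, 133 CPM in AET and 158 CPM in SED. Among the members Grb10 was most like H19 (r = 0.774, rank 305), while Igf2 had r = 0.449 and rank 2127. SED replicate 2 was the highest library for each of H19, Grb10 and Igf2, at 345, 43.9 and 11.8 CPM. AET_MET replicate 1, the library with the fewest expected counts, was the lowest for H19 and Grb10, at 75.7 and 21.0 CPM. The libraries share their group means and their scaling, and such r values are the top of many, so they are a description.

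Meg3 and Rian were highest in trained mice without the drug. Rian, the noncoding RNA that hosts the snoRNAs, had 3.15, 3.29 and 3.91 CPM in AET_MET libraries, 4.44, 4.84 and 4.66 CPM in AET libraries, and 2.98, 3.04 and 3.08 CPM in SED libraries. No 2 groups overlapped, with AET highest and SED lowest. Its log2 difference was 0.19 ± 0.15 for AET_MET against SED, -0.43 ± 0.15 for AET_MET against AET and 0.62 ± 0.15 for AET against SED. The call in AET against SED was kept in 6 of the 9 fits without 1 library and lost without AET replicate 2 or 3 or SED replicate 1. Without AET_MET replicate 3, the difference of AET_MET against SED was 0.08 ± 0.16.

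Meg3, a maternally expressed RNA with growth-restraining activity, had 1.91, 2.04 and 2.11 CPM in AET_MET libraries, 2.43, 2.65 and 3.04 CPM in AET libraries, and 2.17, 1.63 and 1.56 CPM in SED libraries. The AET libraries lay above all others, and AET_MET and SED overlapped. Its log2 difference was 0.18 ± 0.20 for AET_MET against SED, -0.42 ± 0.19 for AET_MET against AET and 0.60 ± 0.20 for AET against SED. These values rest on 122, 194 and 115 counts in AET_MET, AET and SED. The share of tested genes with all AET libraries above all others was 6.09%, against 2 of the 8 tested members, both from this cluster.

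The ratio of Rian to Meg3 was 1.65, 1.61 and 1.85 in AET_MET libraries, 1.82, 1.82 and 1.53 in AET libraries, and 1.37, 1.86 and 1.97 in SED libraries. The groups overlapped, with means of 1.70 ± 0.13, 1.73 ± 0.17 and 1.73 ± 0.32 (SD, n = 3) for AET_MET, AET and SED. Among the members Rian was most like Meg3 over the 9 libraries (r = 0.848, rank 70 of 11313). The 5 genes most like Meg3 were Cyyr1, Kank4, Socs5, Nid2 and Mettl8, with r of 0.955, 0.944, 0.938, 0.936 and 0.936.

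The other members of this cluster were near the limit of detection. Mirg, host of the large miRNA cluster, had 1 to 7 counts in a library and 15, 16 and 6 counts in all in AET_MET, AET and SED. Dlk1, a Notch-like inhibitor of differentiation, had 1 to 9 counts and 16, 22 and 16 in all. Neither passed the filter, so differences in these genes were not tested. Rtl1, a paternally expressed gene between Meg3 and Rian on the other strand, had 0 to 2 counts.

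Schwann cell markers, like Meg3 and Rian, were highest in the AET libraries. The 8 Schwann cell markers summed to 48.5 to 104.5 CPM in AET_MET, 115 to 192 CPM in AET and 63.1 to 72.1 CPM in SED libraries, so the AET libraries were above all others. In AET against SED each of the 8 had a positive log2 change, and 2 were called, S100b and Sox10 (edgeR; 8 at an unadjusted p under 0.05). DESeq2 called 5 there, with S100b but not Sox10 among them. All 8 had a lower estimate in AET_MET than in AET, with none called (edgeR; 8 at an unadjusted p under 0.05, and 3 called by DESeq2). The 8 smooth muscle and pericyte markers summed to 520.4 to 625 CPM in AET_MET, 619 to 733 CPM in AET and 532 to 618 CPM in SED libraries. In AET against SED 5 of them had a positive log2 change and 3 a negative one, with a list median of 0.48. There edgeR called only Acta2, with 6 at an unadjusted p under 0.05. DESeq2 called 4: Acta2, Cnn1, Myh11 and Tagln. In AET_MET against AET 6 had a lower estimate and 2 a higher one, with none called (edgeR; 3 at an unadjusted p under 0.05, and 3 called by DESeq2). The 8 endothelial markers summed to 189 to 231 CPM in AET_MET, 243 to 274 CPM in AET and 219 to 253 CPM in SED libraries. In AET against SED 5 of them had a positive log2 change and 3 a negative one, and Kdr was called higher and Cldn5 lower. AET_MET had 1 endothelial marker called lower against SED and 1 against AET. None of these 24 markers was at 0 in any library, and their part in the Meg3 and Rian values was not tested.

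The remaining members overlapped in all 3 groups, apart from Grb10. Grb10 encodes an adaptor that restrains insulin and IGF receptor signalling. It had 21.0, 29.5 and 29.1 CPM in AET_MET libraries, 31.1, 25.8 and 27.4 CPM in AET libraries, and 32.6, 43.9 and 29.7 CPM in SED libraries. AET_MET lay below SED by a narrow margin, with a log2 difference of -0.41 ± 0.17, and AET overlapped with both. That difference was not called with all libraries, in any of the 9 fits without 1 library or in the 9 other settings. It ranged from -0.53 to -0.23 over the fits without 1 library. Cdkn1c, encoding the cell cycle inhibitor p57, had the narrowest relative range: 10.5 to 13.8 CPM in AET_MET, 11.1 to 12.6 CPM in AET and 12.4 to 13.8 CPM in SED libraries. Its log2 differences were -0.09 ± 0.11 for AET_MET against SED, 0.04 ± 0.11 for AET_MET against AET and -0.13 ± 0.11 for AET against SED. Peg3, a paternally expressed zinc finger gene, ranged from 7.52 to 20.3 CPM in AET_MET, 11.03 to 19.6 CPM in AET and 10.6 to 18.95 CPM in SED libraries, a spread within groups that left an SE of 0.43 on each log2 difference. Plagl1, encoding a zinc finger factor that regulates other imprinted genes, ranged from 0.63 to 1.23 CPM in AET_MET, 0.85 to 1.91 CPM in AET and 0.95 to 1.497 CPM in SED libraries, with 14 to 40 counts in a library.

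**Figure D4:**
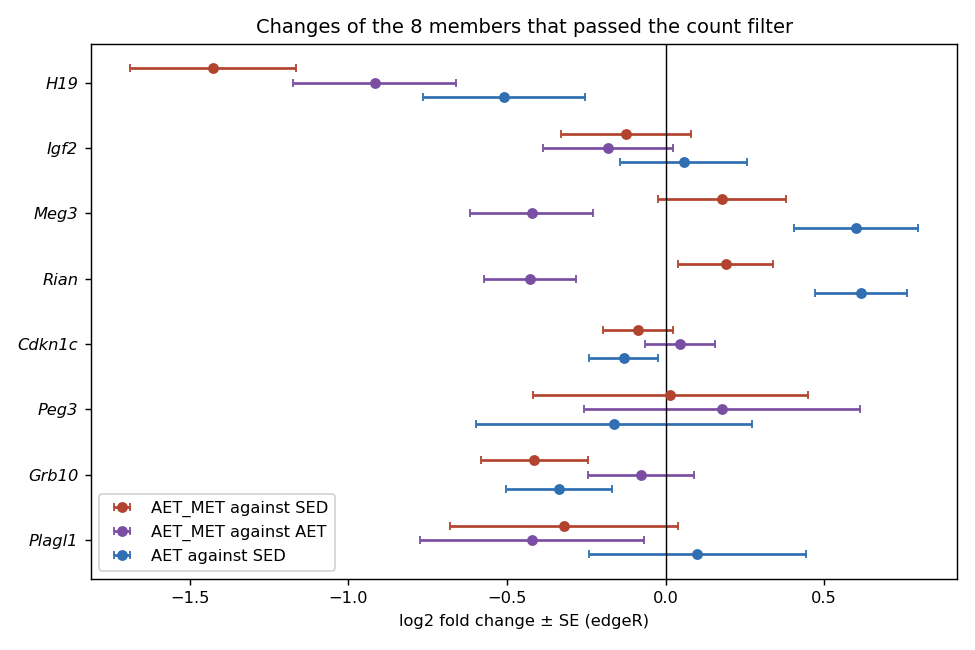
Log2 fold changes with SE from edgeR for the 8 members that passed the filter on low counts, in the 3 comparisons. H19 lay below 0 in all 3, at -1.43, -0.92 and -0.51, and Meg3 and Rian lay above 0 in AET against SED at 0.60 and 0.62. The comparisons share libraries in pairs, so the points of a gene are not independent.

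In AET against SED 1 of the 8 was called (Rian, higher), where 12.3% of all genes tested were called and 5.82% were called higher. In AET_MET against SED 1 of 8 was called (H19, lower), against 4.59% of all genes, with 2.42% called lower. In AET_MET against AET none was called, against 3.43% of all genes. For that comparison DESeq2 called 1 member (H19), as did edgeR without robust estimation. Groups did not overlap for 3 of the 8 members in AET_MET against SED (26.8% of all genes), 3 of 8 in AET_MET against AET (27.9%) and 2 of 8 in AET against SED (32.7%). The genes were chosen with these comparisons known, so nothing is read from these counts. The median log2 difference of the 8 was -0.11 for AET_MET against SED, -0.30 for AET_MET against AET and -0.04 for AET against SED, where that of all genes was 0.003, 0.0007 and 0.01.

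Other imprinted genes form a list of 64, of which 63 were in the table and 38 passed the filter. In AET against SED 3 rose and 3 fell, or 15.8% of those tested, and the median of the list was 0.03. Kcnq1ot1, the antisense RNA that silences the Cdkn1c cluster on the paternal chromosome, rose to 58.6, 58.7 and 52.4 CPM in AET libraries, against 41.8, 38.3 and 34.4 CPM in SED libraries. Its log2 change was 0.57 ± 0.09 (edgeR adjusted p = 0.00165) and its call was kept in all 9 fits without 1 library. Airn, the antisense RNA that silences Igf2r on the paternal chromosome, rose by 0.63 ± 0.17, with 5.06, 4.22 and 5.31 CPM in AET libraries and 3.21, 2.99 and 3.22 CPM in SED libraries (edgeR adjusted p = 0.0309). Its call was kept in 4 of the 9 fits without 1 library. Phactr2 rose by 0.28 ± 0.08, while Asb4 fell by 0.53 ± 0.11, Zdbf2 by 1.06 ± 0.32 and Dcn, encoding the matrix proteoglycan decorin, by 0.47 ± 0.14. Of the 9 fits without 1 library, 9 kept the call on Asb4, 2 that on Zdbf2, and 1 each those on Dcn and Phactr2.

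In AET_MET against SED 3 of the 38 rose and none fell, 7.89% of those tested, with a list median of -0.01. Kcnq1ot1 stood at 52.4, 52.1 and 58.2 CPM in AET_MET libraries, a log2 change of 0.51 ± 0.09 against SED (edgeR adjusted p = 0.00813, kept in 8 of the 9 fits and lost without AET_MET replicate 3). Airn stood at 6.17, 4.12 and 5.39 CPM in AET_MET libraries and changed by 0.73 ± 0.17 (edgeR adjusted p = 0.0331), a call that held in 4 of the 9 fits and was lost without AET_MET replicate 1 or 3 or any single SED library. The third was Blcap, at 0.41 ± 0.11, a call kept in 1 of the 9 fits without 1 library. The 2 comparisons share the SED libraries. In AET_MET against AET only Snrpn was called, encoding a small nuclear ribonucleoprotein, with 18.1, 18.2 and 20.7 CPM in AET_MET libraries and 24.2, 23.8 and 27.4 CPM in AET libraries (log2 change -0.40 ± 0.10, edgeR adjusted p = 0.0439). That call was kept in 1 of the 9 fits without 1 library.

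The targets of these 2 antisense RNAs were not called. Igf2r, a receptor that clears IGF2 and is maternally expressed, averaged 131 ± 7.47 CPM in AET_MET, 148 ± 9.38 CPM in AET and 138 ± 5.38 CPM in SED (SD, n = 3), with the lowest edgeR adjusted p at 0.226, in AET_MET against AET. Cdkn1c is given above, and Phlda2 of the same cluster had 0 to 2 counts in a library. Airn and Igf2r overlap on opposite strands, and no source used here states the strand setting of the counts, so their reads may be mixed. Kcnq1ot1 is an antisense RNA too, so the same limit applies to its values. Next to Peg3, Zim1 averaged 2.88 ± 0.66 CPM in AET_MET, 2.58 ± 0.37 CPM in AET and 2.82 ± 1.05 CPM in SED and was not called, and Usp29 had 1, 10 and 17 counts in AET_MET libraries, against 2 to 3 in AET and 1 to 3 in SED libraries.

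**Figure D5:**
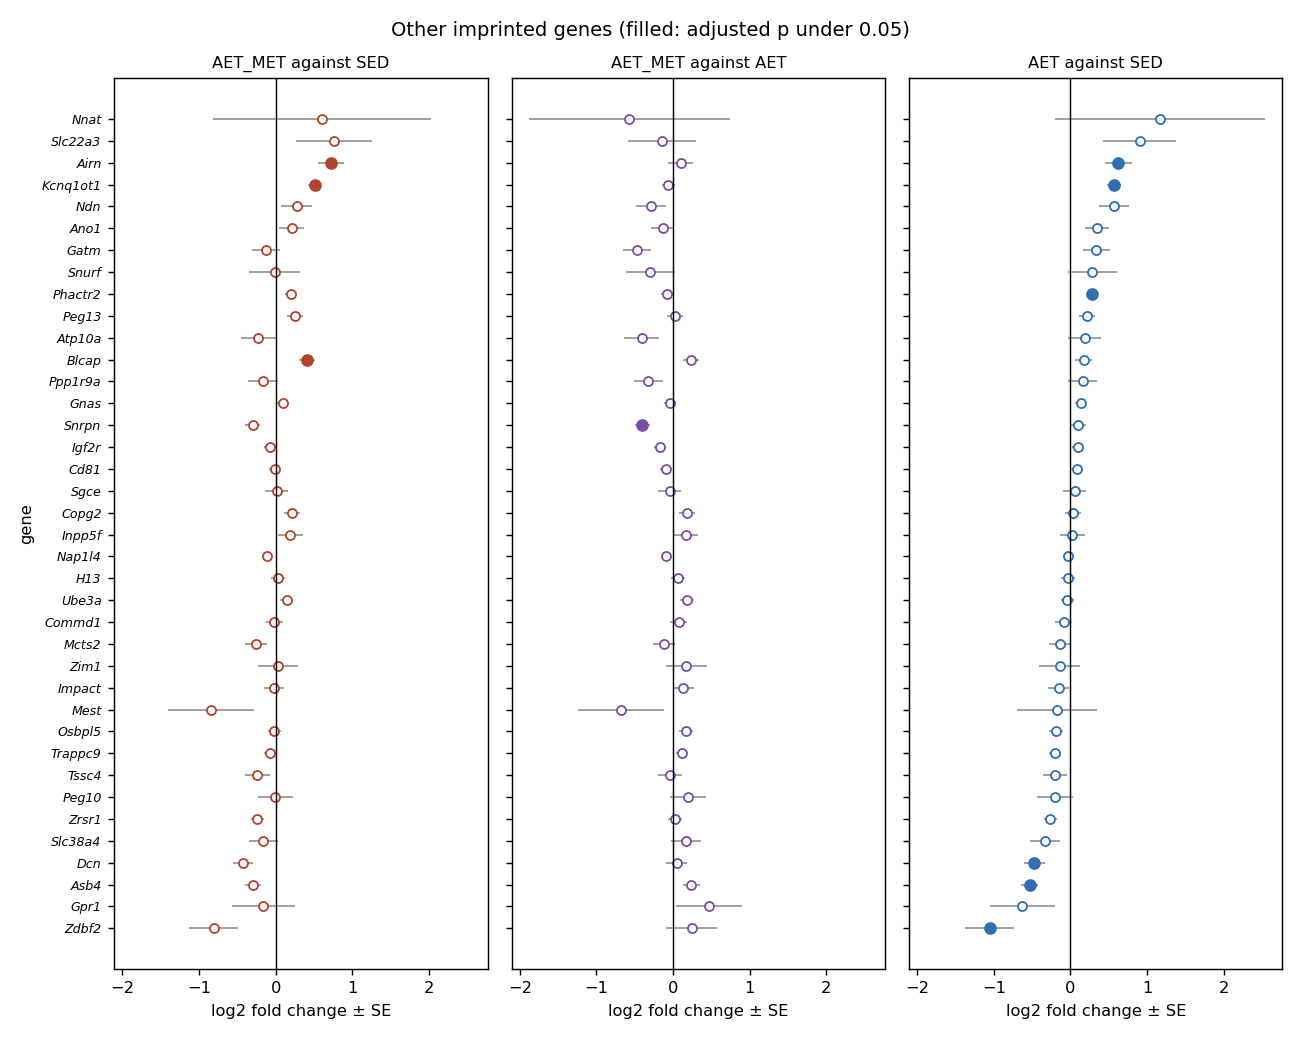
Log2 fold changes with SE from edgeR for the 38 other imprinted genes that passed the filter, ordered by AET against SED, on 1 axis range for all 3 comparisons. Filled points are genes with an adjusted p under 0.05 over all genes: 3 in AET_MET against SED, 1 in AET_MET against AET and 6 in AET against SED. Kcnq1ot1 and Airn were called higher against SED in both trained groups.

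IGF axis genes, which carry the signal of IGF2, form a list of 30, of which 27 passed the filter. In AET against SED 2 rose and 2 fell, 14.8% of those tested (list median -0.03). Igfbp5, encoding an IGF-binding protein, rose to 373, 253 and 243 CPM in AET libraries, against 187, 129 and 183 CPM in SED libraries (log2 change 0.80 ± 0.20, edgeR adjusted p = 0.0336, kept in 3 of the 9 fits without 1 library). Grb2, an adaptor of growth factor receptors, rose by 0.34 ± 0.10. Stc2, encoding an inhibitor of the protease that frees IGFs from binding proteins, fell by 1.199 ± 0.29, and Pik3r1, encoding a regulatory subunit of PI3-kinase, fell by 0.95 ± 0.24. The calls were kept in 5 of 9 fits for Grb2, 6 for Stc2 and 2 for Pik3r1. In AET_MET against SED none of the 27 was called (edgeR; 8 at an unadjusted p under 0.05, and 3 called by DESeq2). In AET_MET against AET only Igfbp7 was called, at -0.46 ± 0.11, and this call was lost in each of the 9 fits without 1 library. The ligand gene Igf1 had 23.2, 17.6 and 17.8 CPM in AET_MET libraries, 23.6, 22.8 and 19.02 CPM in AET libraries, and 14.98, 32.9 and 12.2 CPM in SED libraries. The receptor gene Igf1r averaged 19.9 ± 1.55 CPM in AET_MET, 20.6 ± 2.95 CPM in AET and 22.1 ± 2.47 CPM in SED (SD, n = 3). Neither was called, but without SED replicate 2, the highest library, Igf1 was called higher in AET than in SED with a log2 change of 0.68.

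Factors that place or keep imprints form a list of 24, of which 21 passed the filter. In AET against SED 4 rose and 1 fell, 23.8% of those tested, where 12.3% of all genes were called. The list median was 0.09. Dnmt3a, encoding a DNA methyltransferase that sets imprints in germ cells, rose to 49.1, 47.2 and 53.5 CPM in AET libraries, against 32.3, 26.9 and 31.8 CPM in SED libraries, a log2 change of 0.72 ± 0.10 (edgeR adjusted p = 0.000816, kept in all 9 fits without 1 library). Mbd3, of a chromatin-remodelling complex, rose by 0.36 ± 0.08, Arid4a by 0.36 ± 0.09 and Arid4b by 0.34 ± 0.09. Trim28, the corepressor that ZFP57 recruits, fell by 0.38 ± 0.08, with 23.0, 27.2 and 23.2 CPM in AET libraries and 30.0, 32.1 and 33.6 CPM in SED libraries. The call on Mbd3 was lost without SED replicate 2 and that on Trim28 without AET replicate 3. Those on Arid4a and Arid4b held in 4 and 5 of 9 fits, and both were lost without AET replicate 1 or 3 or SED replicate 1 or 2. In AET_MET against AET, Dnmt3a was lower by -0.42 ± 0.10, with 36.4, 33.6 and 41.9 CPM in AET_MET libraries, Mbd3 lower at -0.39 ± 0.08 and Trim28 higher at 0.43 ± 0.08 (edgeR adjusted p = 0.0376, 0.0250 and 0.0236). These calls were 14.3% of the 21 tested, against 3.43% of all genes. When each library was left out in turn, the call on Dnmt3a held 3 times of 9, and those on Mbd3 and Trim28 held 4 times each. In AET_MET against SED none of the 21 was called (edgeR; 2 at an unadjusted p under 0.05, and 0 called by DESeq2). Ctcf averaged 31.0 ± 1.67 CPM in AET_MET, 35.0 ± 3.28 CPM in AET and 33.2 ± 2.22 CPM in SED and was not called, and Zfp57 had 0 to 4 counts in a library.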

How the data were processed

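Per the labels, RNA from gastrocnemius was sequenced in 9 libraries. The authors deposited RSEM expected counts per gene (estimated counts). STAR 2.5.3a, RSEM 1.3.0, edgeR 3.34.0 and GRCm38 are named, without roles, per the submitters' processing notes. No source used here names the annotation release or the strand setting.

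Values that were not whole, 4.85% to 5.53% in each library, were rounded. GENCODE M21 gave symbols to 52135 of 55416 identifiers. The fit used edgeR 4.0.16 in R 4.3.3 (robust quasi-likelihood, TMM, filterByExpr) on all 9 libraries with group means (6 residual degrees of freedom). Log2 CPM used a prior count of 2, and SE is the change divided by the root of F. DESeq2 1.42.0 was an alternative. Between libraries of a group the chi-square was 16.2 or more times its degrees of freedom, so none was merged. Simulated data were used to check the fit.

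The members and lists were chosen with earlier results of these data known. Named are all members, the called genes of each list, and fixed genes of the member loci. Of these, the genes for myogenesis, Notch partners and the cell cycle stand under the other observations. Marker lists of macrophages, adipocytes and erythroid cells were also counted.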

Additional observations from a re-analysis of the deposited data

How the results depend on the processing

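Of the log2 differences of the 8 tested members, 421 of 423 under other settings moved by less than the spread between libraries. Such settings can hardly move a value further than that, so this count says little about how stable the values are. The called differences, H19 in AET_MET against SED and Rian in AET against SED, kept their sign. The 2 that moved were those of Rian without AET_MET replicate 3, at 0.08 against SED and -0.54 against AET. H19 was not called in AET_MET against SED without a filter or with only the 2 groups fitted. With library sizes alone the median of all genes moved by 0.10 (log2) in AET_MET against SED, and Cdkn1c there and Grb10 in AET_MET against AET turned to 0.01. Of the calls, 79.5% were then rises, against 47.3% with TMM, and in AET_MET against AET 79.7% against 48.3%. Upper-quartile scaling gave 58.0% against 47.4% in AET against SED.

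Calls over all genes in AET_MET against AET numbered 478, and 767 with library sizes alone, 731 without a filter and 880 with DESeq2. Leaving out 1 library gave 934 to 1509 calls in AET against SED (1712 with all), 141 to 655 in AET_MET against SED (640) and 23 to 461 in AET_MET against AET. For the other imprinted genes these ranges were 2 to 4 (6 with all), 0 to 3 (3) and 0 to 1 (1), and for the IGF axis 0 to 4 (4), 0 to 1 (0) and 0 to 1 (1). The 6 imprinted genes called in AET against SED became 3 with only the 2 groups fitted and 3 with the replicate block. The 1 in AET_MET against AET became 0 with library sizes alone or without robust estimation. The IGF axis count of 4 in AET against SED became 2 without a filter and 2 with the replicate block. Its 0 in AET_MET against SED became 3 with DESeq2, 1 without robust estimation and 1 with the block. Its 1 in AET_MET against AET became 0 with library sizes alone, 0 with the block, 2 without a filter, 3 when 5 CPM in 3 libraries was required and 4 with DESeq2. The cause was not tested in any of these cases. The labels do not say whether same-numbered libraries are paired, and correlations between libraries cannot settle it. Deviations of same-numbered libraries from their group means correlated at -0.05 to 0.18, over 0.1 in 2 of 9 pairs. For libraries of other numbers the range was -0.17 to 0.14, over 0.1 in 1 of 18 pairs. The block left the calls on H19 and Rian in place. Mirg, Dlk1 and Plagl1 are limited by depth.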

Other observations

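Genes that act beside Cdkn1c and Dlk1 were counted as well. Of 18 tested cell cycle genes, AET against SED called 2 higher and 1 lower: the cyclin genes Ccnd1 (1.38 ± 0.23, edgeR adjusted p = 0.00266) and Ccnd2 (0.98 ± 0.19), and the CDK inhibitor gene Cdkn1b (-0.38 ± 0.09). That was 16.7% of the 18, against 12.3% of all genes. Cdkn1a, encoding p21, averaged 7.05 ± 3.02 CPM in AET_MET, 6.55 ± 1.08 CPM in AET and 20.9 ± 9.53 CPM in SED and was not called (edgeR adjusted p = 0.109 for AET_MET against SED and 0.0547 for AET against SED), though 1 and 2 of the 9 fits without 1 library called it. DESeq2 and the replicate block called it lower in both comparisons. None of the 18 was called in AET_MET against SED (edgeR; 4 at an unadjusted p under 0.05, and 1 called by DESeq2) or in AET_MET against AET (4 and 3). Of 15 Notch and Dlk1 partners, Jag2, encoding a Notch ligand, rose by 0.59 ± 0.11 in AET_MET and by 0.56 ± 0.11 in AET against the same SED libraries. Notch1 rose by 0.41 ± 0.11 in AET against SED, and Numb fell by 0.38 ± 0.10 in AET_MET against SED. Calls were 13.3% of the 15 in each of these comparisons, against 12.3% of all genes for AET and 4.59% for AET_MET. Leaving out each library in turn, the call on Notch1 held 4 times of 9 and that on Numb 2 times, and Numb was also not called with upper-quartile scaling, library sizes alone or the block. The call on Jag2 in AET_MET against SED was lost without AET_MET replicate 1 or 3 or SED replicate 2.

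Of 16 myogenesis and regeneration genes, 11 had a lower estimate in AET_MET than in SED, with a list median of -0.74. There edgeR called 1, Myod1 (6.25%, against 4.59% of all genes), with 7 at an unadjusted p under 0.05. DESeq2 called 6: Myod1 higher, and Actc1, Chrna1, Myog, Ncam1 and Runx1 lower. In the edgeR fit these 5 had log2 differences of -2.56, -0.74, -1.51, -0.74 and -0.79 and were not called. Myf6 fell in AET against SED by 0.99 ± 0.17, a call lost without AET replicate 1. Myod1 stood at 7.46, 8.80 and 8.39 CPM in AET_MET libraries, 5.15, 5.97 and 4.99 CPM in AET libraries and 5.25, 6.17 and 4.397 CPM in SED libraries, and was called higher in AET_MET against both (edgeR adjusted p = 0.0269 against SED and 0.0370 against AET). With each library left out in turn, these calls held 4 and 3 times of 9. No marker of macrophages, adipocytes or erythroid cells was called in any comparison (edgeR; in AET_MET against SED 0 of 8, 1 of 8 and 2 of 5 had an unadjusted p under 0.05, and DESeq2 called 0, 0 and 1).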
